A study of Mus musculus with 2 samples.

Results

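The genes described here are 39 type I interferon-stimulated genes, chosen by name and matched once each to the gene symbols of the deposited count tables, out of 31053 genes in all. They were chosen for their known response to type I interferon, with earlier results of these data known. The data are 10x 3′ single-cell RNA counts from 2 libraries, 1 from old and 1 from young MRL-lpr mice. Both groups carry the Fas-lpr mutation on the autoimmune-prone MRL background, and the labels give age only as old or young. Each library came from pooled kidneys, whose cells were enriched for innate lymphoid cells by a density gradient and an enrichment kit and sorted as live cells, so the shares of cell types are not those of the kidney.

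The young library held 156787812 unique molecular identifiers (UMIs) in 15076 barcodes and the old library 126334256 in 12622. A barcode counted as a cell when it had 200 genes or more and no more than 20% of mitochondrial UMIs. That left 11429 young cells with a median of 7881 UMIs and 10232 old cells with a median of 6933. Scrublet called 2.87% of young and 2.40% of old cells doublets, and these were kept. The libraries shared 26 barcode sequences among kept cells. The study's methods state that female mice were used, yet 50.8% of young and 40.6% of old cells had a Y-linked UMI and none of Xist. Cells with Xist and no Y-linked UMI made up 14.6% of young and 29.1% of old cells. Each pool therefore held cells of both kinds in different proportions, and the summed levels and single members were also computed within both.

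Type I interferons bind the receptor pair Ifnar1 and Ifnar2, and the kinases Jak1 and Tyk2 then activate transcription factors, Stat2 and Irf9 among them, that bind interferon-stimulated response elements in promoters. The induced proteins block viral entry, translation and replication, and several, such as Irf7 and the RNA sensors, feed back on interferon production, while Usp18 restrains the receptor. A raised level of these genes in blood and kidney is a known feature of lupus, and many of them also respond to type II or type III interferon.

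With 1 library per group there was no replicate, so no difference between old and young was tested against variation among mice, and age, pool and library cannot be told apart. Levels are in CPM, the UMIs of a gene or list scaled by all UMIs of the cells of a class, with exact Poisson 95% intervals. Ratios are log2 of old over young with exact binomial 95% intervals. These intervals cover counting error only. Each molecule gives 1 tag at its 3′ end, so levels were not divided by transcript length. Cells were assigned to a class when they had UMIs of at least 3 of its markers and a higher share of that list than of any other of the 16 lists, and classes are named for those markers. The 8 classes with at least 50 cells in each library are described. Apart from NK or ILC1-like cells, at most 13.0% of the cells of these classes had exactly 3 markers.

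The pathway upstream of the members was compared first. Of 18 type I ligand genes, UMIs of 3 were found in the kept cells of the 2 libraries together. Ifnb1 had 1 UMI in the young library, Ifne had 1 in the old, and Ifnk had 176 in the young and 122 in the old. Ligand transcripts were therefore almost undetectable at this depth, apart from Ifnk, which had 142 young and 83 old UMIs in proximal tubule-like cells at 1.21 and 1.19 CPM. The receptor and its kinases were detected in all 8 classes, and none of these 4 genes was at least 1.5-fold higher in the old library in any class. In proximal tubule-like cells Ifnar1 stood at 16.5 CPM in the young and 17.4 in the old library, and Ifnar2 at 19.0 and 20.6. Jak1 was at 126 and 152 CPM and Tyk2 at 5.31 and 5.25. Together these 4 genes went from 167 to 195 CPM (log2 ratio 0.22, 0.19 to 0.26), where the summed members had a log2 ratio of 2.70. Whether the members differ through this receptor was not tested. The receptor genes were also present in B-like cells, where Ifnar1 was lower in the old library (83.3 to 54.4 CPM, log2 ratio -0.61), and in neutrophil-like cells, where Tyk2 was (26.6 to 17.0 CPM, -0.65).

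Of 5 signal factors outside the members, 3 were at least 1.5-fold higher in old proximal tubule-like cells, and together the 5 went from 74.8 to 309 CPM. Irf1, which several cytokines induce, went from 3.03 to 90.7 CPM and Irf8 from 19.9 to 43.4. Irf3 and Irf5 stood at 31.2 and 32.9 CPM and at 5.27 and 5.34. Of all 15195 genes counted in these cells, 11.6% were at least 1.5-fold higher in the old library. Of 3 feedback inhibitors, 2 were, Socs1 from 1.03 to 4.86 CPM and Socs3 from 2.92 to 9.55. Of 7 upstream nucleic acid sensing genes, 4 of 6 with at least 20 UMIs were higher, among them Tlr3 from 1.67 to 4.70 CPM. Of the type III interferon genes, the receptor chain Ifnlr1 went from 0.366 to 0.846 CPM, and the ligands Ifnl2 and Ifnl3 had no UMIs. Ifng and its 2 receptor chains gave 2 of 3 genes higher, Ifng from 1.23 to 3.08 CPM and Ifngr2 from 12.4 to 19.7.

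Summed over the 39 members, the classes differed more within the young library than the libraries differed in most classes. In the young library the order from highest to lowest was mononuclear phagocyte-like (6715 CPM), plasmacytoid dendritic-like (5693), neutrophil-like (3389), T-like (1445), B-like (1261), NK or ILC1-like (694), ILC2-like (522) and proximal tubule-like cells (84.4), with no overlap between neighbours' intervals. In the old library the order was plasmacytoid dendritic-like (5900 CPM), mononuclear phagocyte-like (5739), neutrophil-like (5090), T-like (1904), B-like (1601), ILC2-like (1024), NK or ILC1-like (823) and proximal tubule-like cells (549). There the intervals of plasmacytoid dendritic-like and mononuclear phagocyte-like cells overlapped, and ILC2-like cells stood above NK or ILC1-like cells. The span between the highest and lowest class thus narrowed, because the class with the lowest level in the young library had the largest ratio.

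**Figure D1:**
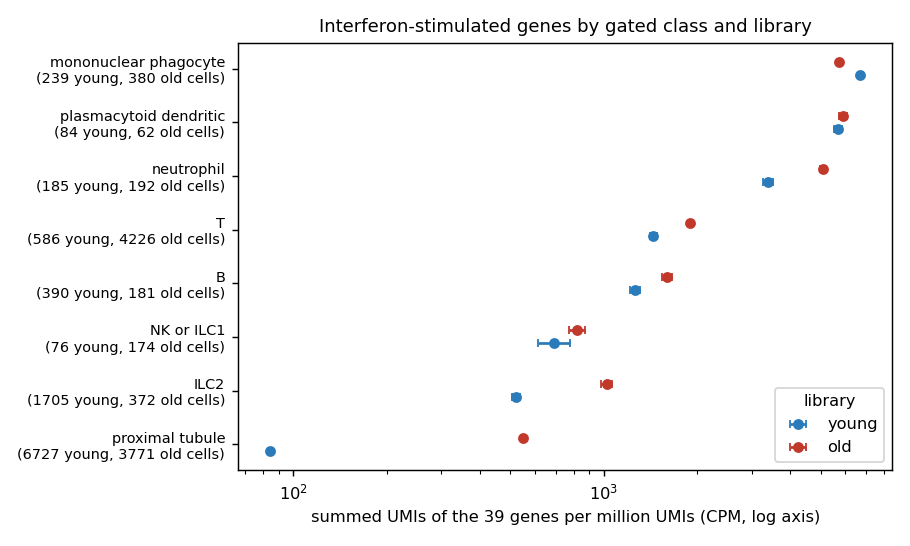
Summed CPM (log axis) of the 39 interferon-stimulated genes in each gated class, young library in blue and old in red, with exact Poisson 95% intervals. The gap between the libraries is widest in proximal tubule-like cells (84.4 and 549 CPM), and in mononuclear phagocyte-like cells the old library lies below the young (5739 and 6715 CPM).

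The log2 ratio of the sums was 2.70 (2.67 to 2.73) in proximal tubule-like cells, a 6.51-fold difference, and 0.97 (0.90 to 1.04) in ILC2-like cells, 1.96-fold. It was 0.59 (0.53 to 0.65) in neutrophil-like, 0.40 (0.36 to 0.44) in T-like, 0.34 (0.26 to 0.43) in B-like and 0.25 (0.05 to 0.44) in NK or ILC1-like cells. In plasmacytoid dendritic-like cells it was 0.05 (-0.01 to 0.11), a difference not detectable at this depth. Mononuclear phagocyte-like cells alone among the 8 classes had an interval below 0, at -0.23 (-0.26 to -0.20). Over all kept cells the members stood at 448 CPM in the young and 1274 in the old library, a ratio that also carries the change in the mix of cells, with T-like cells at 5.13% of the young and 41.3% of the old library.

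**Figure D2:**
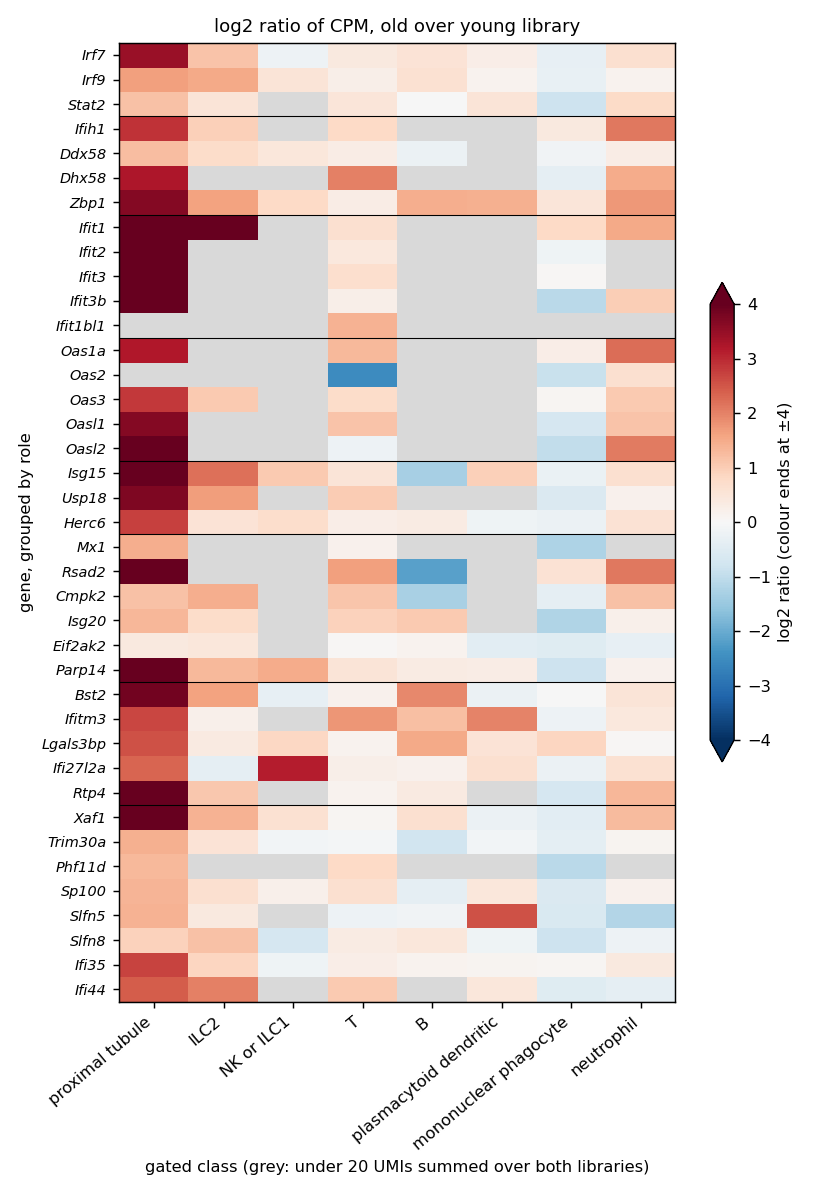
Log2 ratio of CPM, old over young library, for each of the 39 genes, grouped by role, in 8 gated classes; red is higher in old, blue is lower, colours end at 4 in either direction, and grey marks genes with under 20 UMIs summed over both libraries. In proximal tubule-like cells all 37 genes with enough UMIs are red, and in mononuclear phagocyte-like cells 12 of 38 are at least 1.5-fold lower.

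Single members were counted where they had at least 20 UMIs summed over both libraries in a class. Counts over these genes are a description, since a gene with few UMIs in one library passes only when it is high in the other. In proximal tubule-like cells 36 of 37 members were at least 1.5-fold higher in the old library, where 11.6% of all 15195 genes counted the same way were, and 0 were lower, against 8.51% of all genes. The median log2 ratio was 2.82 over members and 0.02 over all genes. In ILC2-like cells 19 of 27 were higher and 0 lower, against 8.33% and 16% of 11548 genes, with medians of 1.06 and -0.06. In neutrophil-like cells 18 of 34 were higher and 1 lower, against 11.5% and 17.9% of 7859 genes, with medians of 0.62 and -0.11. In these 3 classes the share of members that were higher lay far above that of all genes. It also lay above it in the other classes, given next, except mononuclear phagocyte-like cells.

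In T-like cells 16 of 39 members were higher and 1 lower, against 15.7% and 13.1% of 13407 genes, with medians of 0.44 over members and 0.03 over all genes. In NK or ILC1-like cells 7 of 15 were higher and 1 lower, against 11.2% and 13.8% of 7062 genes, with medians of 0.53 and -0.06. In B-like cells 7 of 23 were higher and 4 lower, against 11.7% and 22.6% of 9394 genes, with medians of 0.32 and -0.12. In plasmacytoid dendritic-like cells 5 of 19 were higher and 0 lower, against 11.7% and 7.91% of 7219 genes, with medians of 0.31 and 0.02. Mononuclear phagocyte-like cells taken as a whole showed the opposite, with 2 of 38 members higher and 12 lower, against 11% and 18.3% of 10091 genes, and medians of -0.36 and -0.07. All 10 IFIT and Oas genes were among the members with too few UMIs in NK or ILC1-like, B-like and plasmacytoid dendritic-like cells.

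Among the 8 described classes proximal tubule-like cells, which reabsorb solutes from the filtrate, had the lowest level of the members in both libraries and the largest ratio. All 39 members had a higher CPM in the old library there, and 37 had enough UMIs to be counted. Among the transcription factors 3 of 3 were higher. Irf7, which amplifies interferon production, went from 1.75 to 19.2 CPM (log2 ratio 3.45), Irf9 from 6.19 to 19.3 (1.64) and Stat2 from 7.10 to 15.9 (1.16). The 4 sensors of foreign or misplaced nucleic acid were all higher. Ddx58, which encodes the RNA sensor RIG-I, was already at 9.17 CPM in the young library and reached 21.8, while Ifih1, which encodes MDA5, went from 1.27 to 9.34, Dhx58 from 0.255 to 2.41 and the Z-form nucleic acid sensor Zbp1 from 0.281 to 3.54.

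The IFIT genes, whose proteins bind viral RNA and block its translation, had the largest ratios of the 8 role groups in these cells. Together they went from 1.38 to 63.9 CPM. Ifit1 had 16 UMIs in 11 young cells and 1333 UMIs in 266 old cells, or 0.136 and 19.1 CPM, a log2 ratio of 7.13 (6.43 to 7.95). A single old cell held 229 of those UMIs. Ifit3 went from 0.255 to 18.7 CPM (6.20), Ifit3b from 0.485 to 13.3 and Ifit2 from 0.502 to 12.7. These genes were thus close to absent in young proximal tubule-like cells and at levels like those of T-like cells in the old library, where Ifit1 stood at 24.0 CPM. Ifit1bl1 had 0 young and 7 old UMIs, which makes it at least 3.94-fold higher with 3 counts set in place of 0.

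The 2′-5′-oligoadenylate synthetases activate the nuclease RNase L, and the related Oasl1 lacks that activity. Here these 5 genes together went from 0.910 to 13.3 CPM, with 4 of 4 counted genes higher. Oasl2 went from 0.0765 to 3.50 CPM (log2 ratio 5.52, 4.57 to 6.66) and Oasl1 from 0.697 to 8.86, whereas Oas1a reached 0.545, Oas3 0.301 and Oas2 0.0574 CPM in the old library. The group was therefore carried by Oasl1 and Oasl2. Oas2 had 4 UMIs in each library.

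Isg15, the ubiquitin-like protein joined to target proteins, went from 0.646 to 24.3 CPM in proximal tubule-like cells (log2 ratio 5.23, 4.90 to 5.59). Usp18, which removes it and blocks the receptor, went from 0.281 to 3.73, and Herc6, a ligase for it, from 1.77 to 11.8. All 3 genes of this system were higher. Among the other antiviral enzymes 5 of 6 were at least 1.5-fold higher. Rsad2, which makes a chain-terminating nucleotide, went from 0.595 to 14.2 CPM, and its neighbour Cmpk2, a nucleotide kinase of mitochondria, from 7.86 to 17.8. Parp14, an ADP-ribosyltransferase, went from 1.19 to 28.6 CPM (4.58), the nuclease gene Isg20 from 0.357 to 0.889 and the antiviral GTPase gene Mx1 from 0.0680 to 0.186. Eif2ak2, the RNA-activated kinase PKR that halts translation, was the member with the highest level in young cells, 12.5 CPM, and had the lowest ratio of all 37, 0.39 (0.27 to 0.50), at 16.3 CPM in old cells.

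Membrane and secreted proteins contributed more to the old level of this class than any other of the 8 role groups, 226 of 549 CPM. Bst2, or tetherin, which holds budding virus at the cell surface, went from 8.58 to 123 CPM (3.85, 3.75 to 3.94), with UMIs in 6.81% of the young cells and 60.0% of the old. It alone made up 22.5% of member UMIs in old cells. The secreted glycoprotein gene Lgals3bp went from 9.18 to 53.4 CPM (2.54), Ifitm3, which blocks viral entry, from 494 UMIs to 1885 at 27.0 CPM (2.69), Rtp4 from 0.272 to 10.8 (5.31) and Ifi27l2a from 2.29 to 11.5. All 5 were higher, as were the 8 nuclear, ubiquitin ligase and other genes, from Slfn8 (0.272 to 0.516 CPM, log2 ratio 0.92) to Xaf1 (0.502 to 12.0, 4.58). The largest ratios belonged to members that were rare in young proximal tubule-like cells. This relation is partly fixed in advance, because the young level is the divisor of the ratio. A rare member can also pass the UMI minimum through the old library alone. Some rare members, Slfn8 among them, had small ratios, while Bst2, at 8.58 CPM in young cells, had 3.85.

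**Figure D3:**
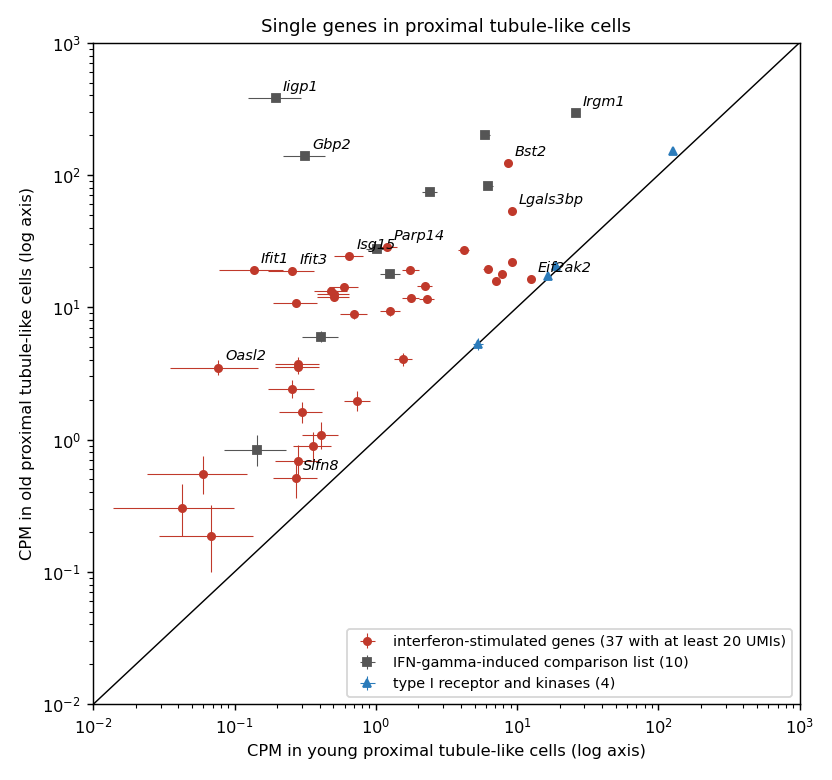
CPM of single genes in young (horizontal) and old (vertical) proximal tubule-like cells, both log axes, with exact Poisson 95% intervals and a line of equal levels; red points are interferon-stimulated genes with at least 20 UMIs, grey squares the interferon-γ-induced genes and blue triangles the receptor and its kinases. All 37 red points lie above the line, Ifit1 (0.136 and 19.1 CPM) farthest and Eif2ak2 (12.5 and 16.3 CPM) nearest, while the triangles lie close to it.

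The members were detected in part of the proximal tubule-like cells of both libraries. With every cell thinned to 1000 UMIs, 13 of 6501 young cells (0.200%, exact interval 0.107% to 0.342%) and 107 of 3715 old cells (2.88%, 2.37% to 3.47%) had UMIs of at least 3 members. Without thinning the shares were 11.9% and 58.4%. The 10% of cells with the most member UMIs held 51.0% of them in the young and 53.3% in the old library. The share that counting and depth alone would give was not computed. The 752 old cells with a UMI of Ifit1, Ifit3 or Isg15 had 996 CPM of the other 36 members, against 313 CPM in the remaining 3019, so these genes tended to be found in the same cells. The former were also deeper, with a median of 21333 UMIs against 13965, and what depth adds to that difference was not tested.

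Proximal tubule-like cells of the libraries fell largely into different clusters. Young cells were most numerous in clusters 7 (1364 cells), 0 (1223) and 2 (1047), and old cells in clusters 9 (1282), 4 (696) and 5 (528). Clusters 9 and 4 held 5 and 10 young cells, so their level has almost no young counterpart. Cluster 9 stood at 540 CPM in those 5 young and 522 in the old cells (log2 ratio -0.05, -0.63 to 0.61), and cluster 4 at 126 and 733 (2.54). The ratio within a cluster was smaller in the clusters of most young cells. It was 1.31 in cluster 7, with 57.1 CPM in 1364 young and 142 in 121 old cells, and 1.33 in cluster 0, with 53.3 CPM in 1223 and 134 in 189. Cluster 6 gave 1.39, at 113 CPM in 883 and 296 in 69, and cluster 2 gave 1.51, at 34.3 CPM in 1047 and 97.9 in 239. Larger ratios were found in cluster 5, 2.34, at 108 CPM in 766 and 546 in 528, and in cluster 8, 2.89, at 71.8 CPM in 490 and 533 in 430. Of the clusters whose gated cells were mostly of this class, only cluster 8 had a ratio above the 2.70 of the class. That value therefore mixes ratios within clusters with the different clusters of the libraries. Clusters 2, 5 and 8, the 3 with at least 200 cells of each library, gave 2.73 when pooled, a value with the same mixing.

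Markers of some leukocytes were also higher in old proximal tubule-like cells. The 6 T markers, all detected in both libraries, summed to 16.8 CPM in young and 58.7 in old cells, with Trac highest at 6.18 and 18.2, where T-like cells had 5176 and 6468 CPM. The 8 mononuclear phagocyte markers, all detected, summed to 27.9 and 108 CPM, with Lyz2 highest at 15.3 and 86.8. The plasma list stood at 9.90 and 20.2 CPM and the neutrophil list at 14.9 and 26.5. The plasmacytoid dendritic list was higher too, at 12.1 and 19.4 CPM. Of other leukocyte lists the ILC2 list stood at 101 and 115 CPM, and the NK or ILC1 list was near equal, at 3.22 and 3.60. The B list was lower, at 4.64 and 2.72 CPM, as were the conventional dendritic list at 1.57 and 1.06 and the basophil list at 0.961 and 0.215. The 8 proximal tubule markers themselves summed to 7646 and 6418 CPM with Slc34a1 highest, and the 6 erythroid markers to 16.4 and 0.574. The 8 distal tubule markers, all detected, summed to 22.3 and 54.0 CPM. In cells without a UMI of any of the 71 leukocyte and endothelial markers the members stood at 64.6 CPM in 1790 young and 495 in 697 old cells, a log2 ratio of 2.94. That restriction does not cover distal tubule markers, and what RNA of other classes adds to the members was not tested.

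Split by sex-linked genes, the members in proximal tubule-like cells with Y-linked UMIs went from 78.6 to 553 CPM (log2 ratio 2.81), with 35 of 36 counted members higher against 10.8% of all genes there. In those with Xist they went from 123 to 569 CPM (2.20), with 26 of 29 higher against 11.5%. The ratio was therefore large in both kinds of cell and smaller in those with Xist, whose young level was higher. Whether the kinds differ beyond the pools they came from was not tested.

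ILC2-like cells numbered 1705 in the young and 372 in the old library. They are the tissue-resident type 2 group of the innate lymphoid cells for which the preparation was enriched. Sp100, a protein of nuclear bodies, was the most abundant member in the young library at 73.4 CPM and stood at 115 in the old. Bst2 was the most abundant in the old, at 57.2 and 173 CPM (log2 ratio 1.60, 1.41 to 1.79), and was found in 24.6% and 48.7% of cells. Lgals3bp stood at 45.3 and 57.6 CPM, with Ifitm3 (21.6 and 25.1) and Ifi27l2a (15.5 and 12.1) among the lowest ratios of the 27 counted members. The pooled ratio of Ifitm3 lay below that of either kind of cell, with 11.7 and 33.6 CPM in cells with Y-linked UMIs (1.52, 0.92 to 2.11) and 6 and 7 UMIs in those with Xist (2.45, 0.65 to 4.30). Ifi27l2a had 58 and 11 UMIs in the former (-0.28, -1.36 to 0.66) and 5 and 7 in the latter (2.71, 0.84 to 4.71).

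Among the factors of ILC2-like cells Irf9 went from 12.6 to 36.2 CPM and Irf7 from 14.3 to 31.6, and Stat2 stood at 14.4 and 20.4. All 3 counted sensors were higher, Zbp1 most, from 10.1 to 30.6 CPM. Isg15 went from 8.97 to 41.3 CPM (2.20, 1.77 to 2.64), Usp18 from 5.92 to 19.0 and Ifi44 from 1.38 to 5.57. Of the IFIT and Oas families, 2 of 10 genes had enough UMIs to be counted. Of these Oas3 went from 3.35 to 6.97 CPM. The other was Ifit1, with 2 UMIs in the young and 52 in the old library, 0.197 and 24.1 CPM, a log2 ratio of 6.94 (5.01 to 10.02). Those 52 UMIs lay in 16 cells and 33 of them in a single cell, while Ifit3 had 2 and 0 UMIs, so the Ifit1 ratio rests on few cells.

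ILC2-like cells with Y-linked UMIs went from 527 to 882 CPM (log2 ratio 0.74), with 13 of 24 counted members higher against 9.38% of all genes there. Those with Xist went from 481 to 1335 CPM (1.47), with 21 of 22 higher against 11.5%. The Xist group held 46 of the 52 Ifit1 UMIs. Other classes' markers also differed. The plasma cell list was at 8.28 CPM in young cells, with 5 of 6 genes detected and Tnfrsf17 at 0, and at 855 in old cells with 6 of 6, nearly all from Jchain at 820. The proximal tubule list, 8 of 8 detected in both, had 805 CPM in young cells, and its most abundant gene Slc34a1 stood at 412 and 165. In both libraries 1 was the highest median of detected markers of any other list. Whether the RNA of other classes adds to the members was not tested.

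T-like cells numbered 586 in the young and 4226 in the old library. The 3 most abundant members were the same in both, with Ifi27l2a at 414 and 485 CPM, Sp100 at 218 and 340 (log2 ratio 0.64, 0.54 to 0.75) and Bst2 at 123 and 138. The largest ratios were those of Dhx58, a regulator of the RNA sensors, from 1.95 to 7.97 CPM (2.03), Ifitm3 from 27.6 to 94.6 (1.78) and Rsad2 from 1.40 to 4.35 (1.64). The Ifitm3 ratio lay in cells with Y-linked UMIs, at 11.3 and 103 CPM (3.19), while cells with Xist had 93.5 and 72.7 (-0.36, -0.75 to 0.04). At the other end Oas2 was lower, from 4.19 CPM (15 UMIs) to 0.724 (19 UMIs), a log2 ratio of -2.53 (-3.59 to -1.45). Oasl2 stood at 0.837 and 0.724 CPM and Slfn5 at 20.1 and 17.6. By role, 3 of 5 IFIT genes, 3 of 5 Oas genes and 3 of 6 other antiviral enzymes were higher, and 0 of 3 transcription factors.

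The summed ratio in T-like cells differed among subsets. Cells with Cd4 and no Cd8 UMIs, 125 young and 1188 old, went from 1551 to 2398 CPM (log2 ratio 0.63), with Isg15 from 25.5 to 87.7 CPM and Ifit1 from 8.50 to 37.7. Cells with Cd8 and no Cd4, 183 and 1197, stood at 1478 and 1798 CPM (0.28), with Isg15 at 57.3 and 49.4 and Ifit1 at 23.1 and 20.7. Cells with neither, 269 and 1747, stood at 1293 and 1539 (0.25). Isg15 and Ifit1 were thus higher in the old library in the first group and not in the second, a difference between subsets that was not tested. Cells with both, 9 and 94, had a ratio of -0.31. In cells with Y-linked UMIs the ratio was 0.88 with Cd4 alone, 0.37 with Cd8 alone and 0.41 with neither. In cells with Xist it was 0.02 (-0.14 to 0.18), 1.38 (1.07 to 1.71) and -0.24, so Cd4 and Cd8 changed places, where the young library held 22, 17 and 55 cells.

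The ratio in T-like cells was small and moved with the cells chosen. It was 0.53 in cells with Y-linked UMIs and 0.11 in cells with Xist, with 17 and 9 of 35 counted members higher, against 14.3% and 18.7% of all genes there. The libraries also fell into different clusters. Cluster 24 held 4 young and 1415 old T-like cells. The ratio was 0.53 in cluster 10, with 307 and 1266 cells, and 0.01 (-0.07 to 0.10) in cluster 21, with 104 and 1330, so it was not shared by the 2 clusters with over 100 cells of each library. In cells with at most 1 marker of any other class, 228 young and 2800 old, it was 0.08, at 1848 and 1950 CPM. The 8 mononuclear phagocyte markers summed to 84.8 CPM in young T-like cells, with 6 of 8 detected and C1qa and C1qc at 0, and to 306 in old, with 8 of 8, Lyz2 being highest at 39.3 and 210. The proximal tubule markers, 8 of 8 detected, summed to 935 and 499 CPM with Slc34a1 highest. The distal tubule list went from 21.5 CPM, with Aqp2, Kcnj1 and Atp6v1g3 at 0, to 271 with 8 of 8 detected and Umod highest at 129. The plasma list went from 8.65 to 69.1 CPM and the erythroid list from 403 to 9.87. Their part in the ratio was not tested beyond that restriction.

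NK or ILC1-like cells numbered 76 and 174, and 68.4% and 59.2% of them had exactly 3 markers, the minimum. Sp100 was most abundant at 184 and 214 CPM. Irf7 (67.2 and 58.5), Ifi35 (67.2 and 60.1) and Bst2 (67.2 and 53.0) had ratios whose intervals included 0. Isg15 went from 29.8 to 61.6 CPM (log2 ratio 1.05, 0.16 to 2.06), Parp14 from 12.4 to 35.1 and Ifi27l2a from 1 to 28 UMIs (3.13, 0.54 to 8.49). Slfn8 stood at 24.9 and 15.6 CPM (-0.67, -1.84 to 0.59). The T marker list was at 786 CPM in young cells, with Cd3e alone of 6 at 0, and at 912 in old cells with 6 of 6 detected and Trbc1 highest in both. Other lists differed more, the proximal tubule at 341 and 103 CPM, the ILC2 at 289 and 133 and the endothelial at 17.4 and 46.8. What they add to the members was not tested.

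B-like cells numbered 390 and 181, and their members moved both ways. Ifi27l2a stood at 366 and 410 CPM and Sp100 at 276 and 214. Bst2 went from 51.1 to 195 CPM (log2 ratio 1.93, 1.60 to 2.27) and from 16.4% to 53.0% of cells, Zbp1 from 19.9 to 54.4 CPM (1.45) and Lgals3bp from 6.13 to 17.7 (1.53). In the other direction Rsad2 went from 23 to 4 UMIs (-2.16, -4.16 to -0.61), Isg15 from 24.5 to 9.84 CPM (-1.32, -2.26 to -0.46) and Cmpk2 from 9.71 to 3.93 (-1.30, -2.92 to 0.08). These latter genes rested on few cells, as 15 of the 23 young Rsad2 UMIs and 26 of the 48 young Isg15 UMIs lay in a single cell each.

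Ifitm3 in B-like cells also rested on few cells. It stood at 118 and 272 CPM, but in 17 young and 13 old cells, and 142 of 414 old UMIs lay in a single cell. Neither kind of cell shared the pooled direction, with 148 and 136 CPM in those with Y-linked UMIs and 90.5 and 7.20 in those with Xist. The 8 mononuclear phagocyte markers summed to 833 CPM with 8 of 8 detected in young B-like cells and to 1923 in old with C1qa at 0. Lyz2 was highest at 711 and 1605, and the part of these markers in the Ifitm3 level was not tested. The plasma list was also higher, at 243 and 670 CPM. The proximal tubule list was lower, at 1215 and 175, as were the erythroid at 149 and 1.31 and the ILC2 at 98.1 and 14.4. What these lists add to the members was not tested. The summed ratio was -0.17 in cells with Y-linked UMIs and 0.35 in cells with Xist. It was -0.19 when classes were taken from clusters, so no single direction held for this class.

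Mononuclear phagocyte-like cells, 239 young and 380 old, had the highest level of the members in the young library among the 8 described classes. Ifitm3 stood at 3175 and 2747 CPM and made up 47.3% and 47.9% of member UMIs, Ifi27l2a stood at 1138 and 964, and Bst2 at 319 and 314. The genes that were lower came from most roles. Mx1 went from 36.4 to 15.4 CPM (log2 ratio -1.24, -1.72 to -0.75), Isg20 from 27.8 to 12.0 (-1.22) and Phf11d from 43.3 to 20.4 (-1.09). In cells with Xist Mx1 had 2 and 29 UMIs (1.69, -0.29 to 4.80). Among the Oas genes 3 of 5 were lower, Oas2 from 27.3 to 14.6 CPM and Oasl2 from 27.3 to 13.9 among them, and Parp14, Stat2 and Slfn8 were lower too. Lgals3bp (89.3 to 163 CPM, 0.87) and Ifit1 (11.2 to 19.6, 0.80) were the 2 that were higher, with Rsad2 next at 27.8 and 41.5.

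Within this class cells with at least 2 of the 3 C1q genes, 87 and 54, stood at 3267 and 3098 CPM (log2 ratio -0.08), and cells without C1q, 149 and 320, at 8207 and 6552 (-0.32). C1q-positive cells thus had a lower level than the others in both libraries, and they were a smaller part of the old class. Cells with Y-linked UMIs gave -0.30 and cells with Xist 0.22. The counts turned too, with 4 of 37 members higher and 11 lower in the former, against 12.8% and 17.0% of all genes there, and 16 of 36 higher and 1 lower in the latter, against 18.2% and 17.7%. With classes taken from clusters, 416 young and 544 old cells, the ratio was 0.16. The direction in this class therefore depended on which cells were taken, and the difference between kinds of cell was not tested. Proximal tubule markers, 8 of 8 detected, summed to 597 and 107 CPM with Slc34a1 highest, and erythroid markers to 294 with Hbb-bt highest and 0.190. Other lists were higher, the plasma list at 4.28 and 178 CPM and the endothelial list at 26.7 and 120. What these markers add to the members was not tested.

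Neutrophil-like cells, 185 and 192, had Ifitm3 highest at 1380 and 1868 CPM, then Ifi27l2a at 537 and 816 and Isg15 at 294 and 460. All 5 Oas genes were higher, from 102 to 229 CPM together, with Oas1a from 3 to 24 UMIs (log2 ratio 2.24, 0.52 to 4.61). Among the sensors 3 of 4 were higher, Ifih1 most, from 8.88 to 38.5 CPM (2.12, 1.05 to 3.39). Rsad2 went from 76.6 to 331 CPM (2.11, 1.75 to 2.50) and from 15.7% to 52.1% of cells. Rsad2 thus made up most of the sum of the other antiviral enzymes in old cells, 331 of 477 CPM, and 2 of the 5 counted genes of that group were higher. Slfn5 was lower, from 69.9 to 31.4 CPM (-1.16, -1.73 to -0.59), while Ifi44 (27.8 and 21.6) and Eif2ak2 (15.5 and 12.4) had intervals that included 0.

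The old neutrophil-like cells were deeper, with a median of 4155 UMIs against 2469, and had more of their own 7 markers, at 88201 CPM against 56880 with S100a9 highest. Mononuclear phagocyte markers, 8 of 8 detected, were at 9631 CPM in young and 8887 in old cells, of which Lyz2 made up most, and this gene is also made by neutrophils. Other lists differed more, the proximal tubule list at 787 and 340 CPM, the erythroid at 473 and 0.653, the conventional dendritic at 230 and 58.8, the T at 64.4 and 137 and the plasmacytoid dendritic at 91.0 and 220. Whether they add to the members was not tested. The summed ratio was 0.56 in cells with Y-linked UMIs and 0.55 in those with Xist, although the latter were 8 young and 22 old cells. It was 1.41 with classes taken from clusters and 1.32 in cells with at most 1 marker of any other class, so the direction held and the size did not.

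Plasmacytoid dendritic-like cells, 84 and 62, are known as strong producers of type I interferon and carry Bst2 constitutively. Bst2 stood at 4066 and 3486 CPM, was found in 100% of cells of both libraries, and made up 71.4% and 59.1% of member UMIs. Ifi27l2a went from 537 to 842 CPM (log2 ratio 0.65), Ifitm3 from 77.5 to 308 (1.99), Slfn5 from 8.16 to 47.5 (2.54, 1.29 to 4.07) and Zbp1 from 9.52 to 25.6 (1.43, 0.14 to 2.90). The near-equal sums thus joined a Bst2 ratio below 0 with ratios above 0 in other genes, and without Bst2 the log2 ratio was 0.57. Trim30a stood at 207 and 192 CPM, and Eif2ak2 and Xaf1, the other low ratios, had intervals that included 0. Of the 253 old Ifitm3 UMIs 112 lay in a single cell. Mononuclear phagocyte markers summed to 1131 CPM, with C1qc alone of 8 at 0, and to 2493 with 6 of 8 detected, Lyz2 being highest in both, and their part in the Ifitm3 level was not tested.

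The share of cells with at least 3 members, with every cell thinned to 1000 UMIs, moved with the sums in most classes. It went from 1.78% to 8.45% in ILC2-like, from 27.2% to 56.9% in neutrophil-like and from 28.9% to 54.1% in plasmacytoid dendritic-like cells. It stood at 14.3% and 18.6% in T-like, 8.83% and 12.3% in B-like and 6.58% and 4.05% in NK or ILC1-like cells. In mononuclear phagocyte-like cells it went from 51.9% to 41.0%. Plasmacytoid dendritic-like cells therefore held more members per cell in the old library at nearly the same summed level. Because no class is known to lack these genes, no share could be set as the level that free RNA alone gives, and median depth was 14511 and 15538 UMIs in proximal tubule-like but 5255 and 5499 in ILC2-like cells before thinning.

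A list of 10 genes known for induction by interferon-γ, mostly GTPases, was compared with the members. In proximal tubule-like cells it went from 43.9 to 1224 CPM (log2 ratio 4.80), with 10 of 10 genes higher and a median ratio of 4.32, against 2.82 for the members. Iigp1 alone went from 0.196 to 380 CPM. Old cells with a UMI of Ifit1, Ifit3 or Isg15 had 2554 CPM of this list and the rest 768. The list was thus higher in the cells with those members, as the other 36 members were. These cells were also deeper, and what depth adds to that difference was not tested. In mononuclear phagocyte-like cells the list stood at 807 and 833 CPM, near equal where the members gave a ratio below 0. In ILC2-like cells it went from 124 to 526 with 9 of 9 counted genes higher. Its log2 ratio was 1.92 in B-like, 1.70 in neutrophil-like and 1.28 in plasmacytoid dendritic-like cells. It was 0.69 in T-like and 0.56 in NK or ILC1-like cells. The type of interferon behind either list was not tested.

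The members lie on 15 chromosomes of the mouse genome build GRCm38 in the GENCODE M21 annotation, and 16 of them lie in 6 groups with gaps under 500000 bases. Ifit2, Ifit3, Ifit1bl1, Ifit3b and Ifit1 lie at chr19:34550694-34650009, Oasl2 and Oasl1 at chr5:114896936-114937915, and Rsad2 and Cmpk2 at chr12:26442746-26479837. Neighbours did not always move alike, as Rsad2 and Cmpk2 had log2 ratios of 4.58 and 1.18 in proximal tubule-like cells. Related genes may share reads. In the last 500 bases of their transcripts 14.9% of the 50-base stretches of Ifit3 also occur in Ifit3b. None of those of Ifit3b occur in Ifit3, and none of Ifit1 in Ifit1bl1. The split of UMIs between Ifit3 and Ifit3b is therefore less certain than their sum. Sharing with genes outside the list was not tested.

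Promoter windows of 300 bases around the annotated start, from RefSeq on GRCm38.p6, were available for 31 of the 39 members. The windows of Dhx58, Ifi27l2a, Mx1, Oas2, Parp14, Rtp4, Usp18 and Zbp1 were missing. The letters GAAANNGAAA, the core of the interferon-stimulated response element, were searched on both strands. They occur in 17 of the 31 members (54.8%) and in 1079 of all 27025 genes with a window (3.99%), or in 1131 of 32851 windows (3.44%). They also occur in 6 of 7 interferon-γ-induced genes with a window (85.7%), so they do not set the members apart from that list. Among proximal tubule-like values the 16 counted members with a match had a median log2 ratio of 2.85 and the 14 without one 2.63, so members with and without these letters were both higher. The windows printed are those of the 3 members with the highest ratios in that class, Ifit1, Ifit3 and Oasl2, of Eif2ak2, which had the lowest, and of Isg15, which had the most matches. Capitals mark matches on either strand, read 5′ to 3′ on the gene's strand, and positions count from the annotated start as 0. The reference is not the MRL strain, and a match is a description of letters only.

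Ifit1 (chr19:34640639-34640938, plus strand) has matches that begin at -104 and -85, and Ifit3 (chr19:34583279-34583578, plus strand) at -156 and -122, in both windows on the opposite strand. Oasl2 (chr5:114896684-114896983, plus strand) has none in this window. Eif2ak2 (chr17:78882523-78882822, minus strand) has 1, at 18, after the start, and Isg15 (chr4:156200769-156201068, minus strand) has 3 that overlap, at -78, -72 and -66.
Ifit1: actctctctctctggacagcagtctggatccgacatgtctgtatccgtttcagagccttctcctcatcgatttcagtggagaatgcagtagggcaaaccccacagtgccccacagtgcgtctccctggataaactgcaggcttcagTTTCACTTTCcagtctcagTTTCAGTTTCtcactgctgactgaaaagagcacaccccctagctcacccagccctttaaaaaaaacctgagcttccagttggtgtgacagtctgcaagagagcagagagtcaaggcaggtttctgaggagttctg
Ifit3: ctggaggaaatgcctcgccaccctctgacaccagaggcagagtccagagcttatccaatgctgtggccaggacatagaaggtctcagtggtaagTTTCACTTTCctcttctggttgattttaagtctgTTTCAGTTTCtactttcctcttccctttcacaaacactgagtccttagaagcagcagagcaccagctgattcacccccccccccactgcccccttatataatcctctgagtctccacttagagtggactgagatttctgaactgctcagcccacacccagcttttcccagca
Oasl2: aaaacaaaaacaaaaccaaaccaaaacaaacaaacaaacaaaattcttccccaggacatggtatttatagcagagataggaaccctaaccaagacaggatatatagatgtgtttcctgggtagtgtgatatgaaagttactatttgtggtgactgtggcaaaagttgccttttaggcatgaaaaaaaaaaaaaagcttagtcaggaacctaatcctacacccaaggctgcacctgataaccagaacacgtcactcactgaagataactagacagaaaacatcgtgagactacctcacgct
Eif2ak2: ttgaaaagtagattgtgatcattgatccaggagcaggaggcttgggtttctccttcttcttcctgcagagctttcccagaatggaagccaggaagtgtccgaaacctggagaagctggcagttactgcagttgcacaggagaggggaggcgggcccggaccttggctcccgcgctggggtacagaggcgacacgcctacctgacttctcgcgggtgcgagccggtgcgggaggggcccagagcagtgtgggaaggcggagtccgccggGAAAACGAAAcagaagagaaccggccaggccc
Isg15: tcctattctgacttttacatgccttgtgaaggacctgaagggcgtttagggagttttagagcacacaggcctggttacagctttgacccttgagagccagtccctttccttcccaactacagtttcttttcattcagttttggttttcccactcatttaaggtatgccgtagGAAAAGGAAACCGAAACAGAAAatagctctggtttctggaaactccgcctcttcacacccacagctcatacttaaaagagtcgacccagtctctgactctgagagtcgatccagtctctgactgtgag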

How the data were processed

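The deposited counts are UMIs per gene and barcode that the authors made with Cell Ranger 3.1.0 on mm10, unnormalized, for 2 libraries of 31053 genes. Kept cells had 200 genes or more and no more than 20% of mitochondrial UMIs, and doublets called by Scrublet (328 young, 246 old) were kept. Classes were set cell by cell from 16 marker lists with at least 3 detected markers, and UMIs were summed over the cells of a class. Members were counted at 1.5-fold with at least 20 UMIs summed over both libraries, and a count of 0 was set to 3. Clusters came from 2000 variable genes without the members, 20 principal components, 20 neighbours and a resolution of 0.8 (Leiden). Tools were Scanpy 1.11.5, igraph 0.11.9, Matplotlib 3.10.9, pandas 2.3.3, SciPy 1.17.1 and NumPy 2.4.6 under Python 3.11.15. The ratio code was run on simulated counts with known folds.

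In each class the 3 most abundant members of either library and the 3 highest and 3 lowest ratios were named, and others by role. The Ifit1 and Isg15 values in T subsets, the Oas2 and Ifit1bl1 values outside T-like cells and other genes named by role were chosen after their values were seen. The members and lists were chosen with earlier results of these data known. Alternatives changed the marker minimum, clusters, filters, doublets, totals, averaging, the top member, Y-linked or Xist cells, fold, UMI minimum and thinning. Those on markers of other classes, shared clusters, T subsets and C1q were added after seeing the data.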

Additional observations from a re-analysis of the deposited data

Results flagged for a closer look

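Mononuclear phagocyte-like cells were the only one of the 8 classes whose summed log2 ratio of old over young had an interval below 0, at -0.23, while 6 classes had intervals above 0, and this difference between classes was not tested. In 3 groups with at least 20 cells of both kinds in each library, the ratio had intervals on opposite sides of 0 in cells with Y-linked and with Xist UMIs. It was -0.17 and 0.35 in B-like cells, -0.30 and 0.22 in mononuclear phagocyte-like cells, and 0.41 and -0.24 in T-like cells without Cd4 or Cd8 UMIs. C1q-positive mononuclear phagocyte-like cells gave -0.18 and 0.77, with 17 young and 16 old cells with Xist. These differences were not tested either, and the kinds of cell come from an unknown number of mice.

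Groups that the comparisons did not use were examined where each library had at least 15 cells or barcodes. Members were also higher in the old library in 3 of these. Endothelial-like cells had 8336 and 8864 CPM (log2 ratio 0.0886, -0.00106 to 0.177). Unused classes below that minimum went both ways, with plasma-like cells at 850 and 577 CPM and erythroid-like cells at 651 and 1993. Barcodes removed by the filters, 3647 young and 2390 old, had 91.2 CPM in the young and 386 in the old library. Distal tubule-like cells, 33 and 125, had 208 and 1483 CPM. Ungated cells, 959 and 628, had 1070 and 1694 CPM. Why these levels differ was not tested.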

How the results depend on the processing

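The summed log2 ratio kept its sign in proximal tubule-like cells under 14 of 14 alternatives (2.20 to 2.94), in ILC2-like under 12 of 12 (0.74 to 1.47), in T-like under 13 of 13 (0.08 to 0.53), in neutrophil-like under 12 of 12 (0.55 to 1.41) and in NK or ILC1-like under 12 of 12 (0.08 to 0.41). It kept it under 10 of 12 in B-like (-0.19 to 0.41), 12 of 14 in mononuclear phagocyte-like (-0.48 to 0.22) and 11 of 12 in plasmacytoid dendritic-like cells (-0.20 to 0.57). Values outside the counting interval follow, and the cause was not tested for any.

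With at least 4 markers mononuclear phagocyte-like cells gave -0.15. Classes from clusters gave 1.11 in ILC2-like, -0.19 in B-like, 0.16 in mononuclear phagocyte-like, 1.41 in neutrophil-like and 2.76 in proximal tubule-like cells. At most 10% mitochondrial UMIs gave 2.77 in proximal tubule-like cells. Without doublets the ratio was 0.18 in B-like, -0.27 in mononuclear phagocyte-like and 2.75 in proximal tubule-like cells. Leaving abundant genes out of the total gave -0.27 in mononuclear phagocyte-like cells and moved no class's median over all genes by more than 0.1. The mean over cells gave 0.32 in T-like, 0.21 in B-like, 0.97 in neutrophil-like and 2.52 in proximal tubule-like cells. Without the most abundant member the values were 0.46 in T-like, 0.68 in neutrophil-like, 0.57 in plasmacytoid dendritic-like and 2.49 in proximal tubule-like cells. Y-linked cells gave 0.74 in ILC2-like, 0.53 in T-like, -0.17 in B-like, -0.30 in mononuclear phagocyte-like and 2.81 in proximal tubule-like cells. Xist cells gave 1.47 in ILC2-like, 0.11 in T-like, 0.22 in mononuclear phagocyte-like, -0.20 in plasmacytoid dendritic-like and 2.20 in proximal tubule-like cells.

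Of the alternatives chosen after seeing the data, at most 1 marker of any other class gave 0.0769 in T-like, 0.13 in B-like, -0.48 in mononuclear phagocyte-like, 1.32 in neutrophil-like, 0.26 in plasmacytoid dendritic-like and 2.81 in proximal tubule-like cells. Proximal tubule-like cells without leukocyte or endothelial markers gave 2.94. T-like cells with the young library's subset shares gave 0.35. Mononuclear phagocyte-like cells gave -0.0766 with C1q and -0.32 without.

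Under other folds and UMI minimums, counts of higher members changed by over 1.5 times as follows. At 2-fold they were 9 in place of 16 in T-like, 3 for 7 in NK or ILC1-like, 0 for 2 in mononuclear phagocyte-like and 3 for 5 in plasmacytoid dendritic-like cells. With at least 50 UMIs they were 4 for 7 in NK or ILC1-like and 2 for 5 in plasmacytoid dendritic-like cells, and with at least 5 UMIs 12 for 7 in B-like and 10 for 5 in plasmacytoid dendritic-like cells. Counts of lower members became 0 for 1 in NK or ILC1-like and 4 for 12 in mononuclear phagocyte-like cells at 2-fold. With at least 50 UMIs they became 0 for 1 in T-like, 0 for 1 in NK or ILC1-like and 2 for 4 in B-like cells, and with at least 5 UMIs 4 for 1 in NK or ILC1-like, 3 for 1 in neutrophil-like and 1 for 0 in plasmacytoid dendritic-like cells. A stricter minimum counts fewer genes. Within Y-linked and Xist cells fewer UMIs remain. Higher members were then 4 of 37 and 16 of 36 in mononuclear phagocyte-like cells (2 in all cells), against 12.8% and 18.2% of genes. In T-like cells they were 17 and 9 of 35 (16), against 14.3% and 18.7%. In NK or ILC1-like cells they were 4 of 10 and 3 of 8 (7), against 12.9% and 24.5%. In neutrophil-like cells they were 19 of 29 and 3 of 9 (18), against 13.1% and 27.3%. In plasmacytoid dendritic-like cells they were 2 of 14 and 2 of 10 (5), against 11.6% and 23.5%. Lower members were 11 of 37 and 1 of 36 in mononuclear phagocyte-like cells (12), against 17.0% and 17.7% of genes. In B-like cells they were 6 of 18 and 1 of 14 (4), against 23.7% and 23.0%. In T-like cells they were 0 and 2 of 35 (1), against 11.6% and 21.4%. In plasmacytoid dendritic-like cells they were 1 of 14 and 0 of 10 (0), against 11.0% and 16.9%. The share of cells with at least 3 members kept its direction in 7 of 8 classes when thinned to 500 or 2000 UMIs or with at least 5 members, and in 6 of 8 without thinning. Depth limits the rare members most, since 24 of 39 could not be counted in NK or ILC1-like cells.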

Other observations

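Endothelial-like cells, 300 young and 18 old, had the highest summed level of the members among classes with more than 1 cell in each library, at 8336 CPM in the young and 8864 in the old. In young cells Ifitm3 stood at 2356 CPM, Rsad2 at 1134, Bst2 at 1002, Ifi44 at 433 and Isg15 at 257, so the antiviral enzyme Rsad2 was among their most abundant members. In distal tubule-like cells the log2 ratio was 2.84, with Isg15 at 11.8 and 240 CPM, Bst2 at 40.1 and 345 and Ifitm3 at 21.2 and 190, although the young library held 33 such cells. Plasma-like cells, 7 and 75, stood at 850 and 577 CPM. Erythroid-like cells, 69 and 3, had Rsad2 as 46.9% of young member UMIs.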
